A study of Mus musculus with 4 samples.

Results

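The genes described here are 32 genes of the SREBP pathway, which makes sterols and fatty acids, chosen as a fixed list of gene symbols out of 31055 genes in the count tables. They comprise 18 enzymes of the sterol branch, 6 enzymes of the fatty acid branch, 5 regulators and 3 genes of sterol transfer and efflux. Of the 32 genes, 30 reached 5 CPM, UMI counts scaled to the same total in every library, in at least 1 library and are called measured, as were 10323 of all genes. Tm7sf2, a sterol reductase, and Abcg1, a sterol exporter, stayed under that level in every library.

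The study counted transcripts in single muscle stem cells, the Pax7-expressing progenitors that repair muscle fibres, from Tg:Pax7-nGFP mice aged 2 to 4 months, a strain in which GFP is made under Pax7 control and all cells were sorted for GFP. Activated EOM cells came from extraocular muscle, the muscle of eye movement, and activated TA cells from tibialis anterior of the lower leg, and both were cultured on a Matrigel coat for 4 days in growth medium under 3% oxygen. Quiescent EOM and quiescent TA cells were processed straight after the sort. There was 1 library for each of these 4 groups, so that no difference has a replicate check, no test between groups was made, and all intervals cover counting error only. The number of animals behind each library is unknown, being not given in the sources used here.

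After filtering, 5563 activated EOM, 4281 activated TA, 3594 quiescent EOM and 2908 quiescent TA cells remained, with 122730850, 102291754, 17462207 and 15349294 UMIs in the same order. Median UMIs per cell were 21261, 23383, 4662 and 5038, and 3 counts over a whole library equalled between 0.0244 and 0.195 CPM. All 11 muscle markers were found in every library, with Pax7 at 287 CPM in quiescent EOM and 386 CPM in quiescent TA. Quiescent TA stood apart in cell quality, with 40.5% of its barcodes over 10% mitochondrial UMIs, against 11.7% to 24.7% in the other libraries. The libraries shared at most 12 cell barcodes per pair. Summed adipocyte markers were at 19.2, 31.3, 1.49 and 10.7 CPM in the 4 libraries, mostly from Car3 except in quiescent EOM, and the adipocyte genes Cidec and Lep were at 0 in all of them.

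Cells build cholesterol from acetyl-CoA through mevalonate, the isoprenoid diphosphates, squalene and lanosterol, and they build fatty acids from the same acetyl-CoA through malonyl-CoA. Both branches are controlled by the SREBP transcription factors, which are held in the endoplasmic reticulum by Scap and the Insig proteins while sterols are plentiful and released to the nucleus when sterols run short. SREBP-2, made from Srebf2, mainly drives the sterol genes and SREBP-1c, from Srebf1, the fatty acid genes. Loaded sterols in turn activate the LXR receptors, whose targets Abca1 and Abcg1 export cholesterol.

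SREBPs bind their targets together with other factors, chiefly NF-Y, which recognises CCAAT, and Sp1, which recognises GC boxes. The promoters of the members can therefore be compared for such sequence features. RefSeq promoter sequences (GRCm38.p6) were found for 25 of the 32 members and were searched on both strands over the 250 bases before the start. None was found for Fdps, Fdft1, Sqle, Scd1, Scd2, Stard4 and Abcg1, which were not searched. CCAAT was present in 14 of 15 sterol genes, Acat2 being the exception, in 1 of 4 fatty acid genes, namely Fasn, and in 4 of 5 regulators. It was present in 37.5% of all 27025 genes with such a window, and in 40.7% of the 8098 measured genes. The GC box, spelled GGGCGG, was in 14 of 15 sterol genes, 1 of 4 fatty acid genes and 5 of 5 regulators. It was in 21 of the 25 members, against 66.9% of measured genes and 35.4% of all genes. CACGTG, an E-box that reads the same on both strands, was in 6 of 25 members, against 10.5% of measured genes. The sterol regulatory element spelled TCACNCCAC was found in Hmgcs1 alone of the 25 members searched, against 1.16% of measured genes. No match of one motif overlapped a match of another in the 33 windows of these members, and a match is a description of the letters only.

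The 180 bases before the start are given for 5 sterol genes with CCAAT boxes, taken from several steps of the pathway, and for the regulator Insig1 and the fatty acid gene Acly, whose stretches hold none. They lie at chr13:119690171-119690350 on the plus strand for Hmgcs1, chr5:114444089-114444268 (plus) for Mvk, chr13:8885426-8885605 (plus) for Idi1, chr5:4104698-4104877 (minus) for Cyp51, chr8:64733579-64733758 (minus) for Msmo1, chr5:28071232-28071411 (plus) for Insig1 and chr11:100528001-100528180 (minus) for Acly. Capitals mark CCAAT boxes, which read ATTGG where they lie on the opposite strand, and, in Hmgcs1, the sterol regulatory element, which begins 137 bases before the start.
Hmgcs1: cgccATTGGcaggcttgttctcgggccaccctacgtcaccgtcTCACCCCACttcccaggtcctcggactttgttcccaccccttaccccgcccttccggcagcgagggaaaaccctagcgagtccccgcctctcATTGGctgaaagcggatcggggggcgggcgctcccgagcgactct
Mvk: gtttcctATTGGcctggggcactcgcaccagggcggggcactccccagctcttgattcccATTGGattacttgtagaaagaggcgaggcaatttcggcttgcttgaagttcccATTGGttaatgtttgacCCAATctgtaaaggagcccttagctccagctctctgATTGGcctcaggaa
Idi1: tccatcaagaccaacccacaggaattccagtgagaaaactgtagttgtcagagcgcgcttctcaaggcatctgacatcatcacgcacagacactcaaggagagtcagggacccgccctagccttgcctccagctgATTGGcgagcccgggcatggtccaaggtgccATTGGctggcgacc
Cyp51: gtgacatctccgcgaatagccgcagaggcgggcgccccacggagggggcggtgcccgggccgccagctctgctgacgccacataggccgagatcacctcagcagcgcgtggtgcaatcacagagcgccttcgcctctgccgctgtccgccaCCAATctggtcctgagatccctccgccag
Msmo1: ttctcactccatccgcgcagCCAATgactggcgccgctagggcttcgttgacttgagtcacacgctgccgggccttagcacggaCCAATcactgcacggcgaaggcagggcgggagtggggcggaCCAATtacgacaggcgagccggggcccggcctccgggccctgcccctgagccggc
Insig1: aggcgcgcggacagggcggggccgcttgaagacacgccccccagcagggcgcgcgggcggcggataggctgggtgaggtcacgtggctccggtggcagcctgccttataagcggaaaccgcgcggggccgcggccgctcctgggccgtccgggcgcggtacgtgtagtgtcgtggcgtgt
Acly: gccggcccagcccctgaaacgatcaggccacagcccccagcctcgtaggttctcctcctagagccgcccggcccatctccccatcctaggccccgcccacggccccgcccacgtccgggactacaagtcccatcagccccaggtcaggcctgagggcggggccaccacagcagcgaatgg

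Mvk held the most of these boxes among the 7 stretches, with 5, and Msmo1 held 3, each written as CCAAT. Over the 19 members with CCAAT there were 39 matches, of which 26 lay within 100 bases of the start. The members whose sequence is shown differed in how they behaved across the libraries: Mvk was higher in both activated libraries, Idi1, Cyp51 and Msmo1 were highest in quiescent TA, and Insig1 was far lower in both activated libraries.

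The first comparison asks whether resting stem cells of an eye muscle and of a leg muscle run this pathway at the same level. The sterol branch was lower in quiescent EOM than in quiescent TA throughout: all 17 measured enzymes had a log2 ratio below 0, 8 were at least 2-fold lower and 0 were higher by that margin. The whole branch summed to 499 CPM in quiescent EOM and 1201 CPM in quiescent TA, a ratio of 0.415 (95% interval 0.405 to 0.426). The fatty acid branch had 0 of 6 members 2-fold apart in either direction, at 183 CPM in quiescent EOM and 213 CPM in quiescent TA, a ratio of 0.860 (0.819 to 0.904). Among all measured genes 3.52% were 2-fold or more lower in quiescent EOM and 5.73% were higher by that margin. The median log2 ratio, computed with 1 CPM added to each level, was -0.81 for the sterol branch and -0.25 for the fatty acid branch, beside 0.10 for all measured genes. In these sums a gene that is high in few cells and one that is low in many give the same level.

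The enzymes that lead to squalene and its epoxide were among those furthest apart. Idi1, the isomerase that interconverts the isoprenoid diphosphates, was at 96.3 CPM in quiescent EOM and 296 CPM in quiescent TA (ratio 0.325, 0.307 to 0.344). Fdps, which joins them into farnesyl diphosphate, was at 31.1 CPM in quiescent EOM against 114 CPM in quiescent TA (0.274, 0.248 to 0.302), the lowest ratio of any enzyme measured in the branch. Both are abundant in TA cells, where Idi1 was the highest of all 32 genes. Fdft1, squalene synthase, the first enzyme committed to sterols, was at 14.4 CPM in quiescent EOM against 31.1 CPM in quiescent TA (0.462, 0.395 to 0.539). Sqle, squalene epoxidase, was at 29.7 CPM in quiescent EOM against 96.5 CPM in quiescent TA (0.308, 0.278 to 0.341).

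The enzymes that strip methyl groups from lanosterol followed the same direction. Cyp51, the lanosterol demethylase, was at 51.3 CPM in quiescent EOM and 137 CPM in quiescent TA (0.375, 0.346 to 0.405). Msmo1, the methylsterol oxidase, was at 42.1 CPM in quiescent EOM and 149 CPM in quiescent TA (0.283, 0.260 to 0.307). Its partners in the same demethylation, Nsdhl and Hsd17b7, had ratios of 0.390 (0.322 to 0.471) and 0.452 (0.401 to 0.509). Cyp51 and Fdft1 overlap Akap9 and Ctsb on the other strand, and Fdps overlaps a gene model on its own strand, so that reads at those loci could be shared where counting did not use the strand.

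The beginning and the end of the pathway were closer between the muscles. Hmgcs1, the synthase that makes HMG-CoA, was at 76.7 CPM in quiescent EOM and 132 CPM in quiescent TA (0.583, 0.543 to 0.625), and the kinase Pmvk was at 12.8 CPM in quiescent EOM and 23.1 CPM in quiescent TA (0.552, 0.465 to 0.655). Hsd17b7 and Fdft1 were just inside the 2-fold limit, while Mvd, the decarboxylase that yields isopentenyl diphosphate, and Lss, lanosterol synthase, were just outside it at ratios of 0.5001 and 0.527, from levels of at most 5.86 CPM. Sc5d, a sterol desaturase, had a ratio of 0.608 (0.539 to 0.685). The intervals of Acat2, a thiolase at the entry of the pathway, Mvk, mevalonate kinase, and Dhcr7, which makes the last reduction, reached above 1. Ebp, a sterol isomerase, was at 49.1 CPM in quiescent EOM and 57.3 CPM in quiescent TA (0.858, 0.780 to 0.944). In all, 14 of the 17 enzymes had intervals wholly below 1 and 0 had intervals above it. The share of all measured genes with such intervals was not computed, so this count describes these enzymes only.

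**Figure D1:**
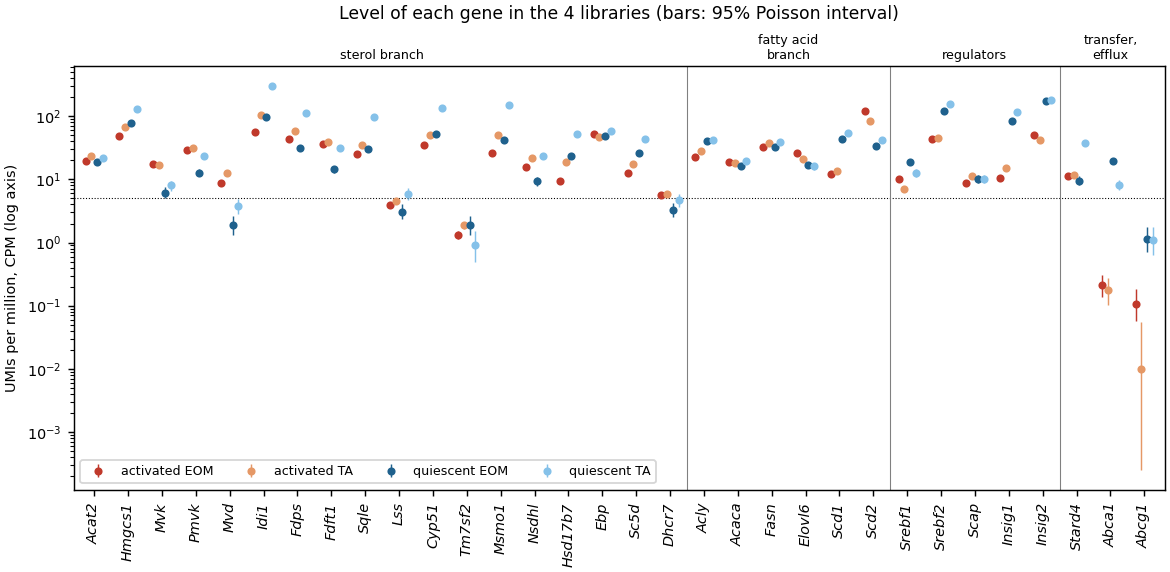
Level of each of the 32 genes in CPM on a log axis, with exact 95% Poisson intervals as bars, in activated EOM, activated TA, quiescent EOM and quiescent TA. The dotted line marks 5 CPM. Most sterol enzymes are highest in quiescent TA (Idi1 at 296 CPM), while the fatty acid enzymes lie closer together except Scd1 and Scd2, and Abca1 is near 0.2 CPM in both activated libraries.

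Within the fatty acid branch the muscles differed by less. Acly, which makes cytosolic acetyl-CoA from citrate, was at 40.4 CPM in quiescent EOM and 42.1 CPM in quiescent TA (0.961, 0.862 to 1.07), and Elovl6, an elongase, was at 16.7 and 16.2 CPM (1.03, 0.867 to 1.23). Acaca, acetyl-CoA carboxylase, Fasn, fatty acid synthase, and the desaturases Scd1 and Scd2 had ratios between 0.785 and 0.842, with intervals below 1. Fasn, the central enzyme, was at 32.5 CPM in quiescent EOM and 38.6 CPM in quiescent TA.

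The regulators were also within 2-fold. Srebf2 was at 119 CPM in quiescent EOM and 154 CPM in quiescent TA (0.775, 0.730 to 0.822). Srebf1 lay the other way, at 19.1 CPM in quiescent EOM and 12.6 CPM in quiescent TA (1.51, 1.26 to 1.81), although its locus overlaps Rai1 on the other strand. Srebf1 thus made up 13.8% (12.4 to 15.2) of the UMIs of the pair in quiescent EOM and 7.60% (6.60 to 8.69) in quiescent TA, with exact binomial intervals. Insig1, itself a sterol-responsive gene, was at 83.0 and 116 CPM (0.716, 0.668 to 0.768), and Insig2 at 177 and 182 CPM (0.972, 0.924 to 1.02), in quiescent EOM and quiescent TA. Scap, the escort protein of the SREBPs, was at 10.1 CPM in quiescent EOM and 10.2 CPM in quiescent TA.

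Sterol transfer and efflux genes pointed in opposite directions. Stard4, a cytosolic sterol carrier that SREBP-2 induces, was at 9.56 CPM in quiescent EOM and 38.2 CPM in quiescent TA (0.250, 0.210 to 0.298), the lowest ratio among the 30 measured genes. Abca1, the cholesterol exporter induced by LXR, was at 19.5 CPM in quiescent EOM and 8.08 CPM in quiescent TA (2.42, 1.96 to 2.99), and it was the 1 member at least 2-fold higher in EOM. Abcg1 was at 1.15 and 1.11 CPM, and Tm7sf2 at 1.89 and 0.912 CPM, in quiescent EOM and quiescent TA.

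Other properties of the quiescent cells differed between the libraries too. Myod1, a muscle determination factor, was at 150 CPM in quiescent EOM and 1190 CPM in quiescent TA. Within quiescent TA the sterol branch summed to 1093 CPM in cells with a Myod1 UMI and 1304 CPM in cells without one, at 2000 UMIs a cell. Within quiescent EOM it was 524 CPM with and 496 CPM without Myod1. Between quiescent cells without Myod1, 10 of 17 sterol enzymes were lower in EOM by 2-fold or more. By mitochondrial share, the upper 50% of quiescent TA cells had 1276 CPM and the lower 50% had 1129 CPM, while in quiescent EOM that upper group had 476 CPM and the lower 50% had 521 CPM. With at most 7% mitochondrial UMIs, which left 1879 quiescent EOM and 735 quiescent TA cells, 6 of 17 enzymes were at least 2-fold lower, and the median log2 ratio was -0.61 for the sterol branch and 0.023 for the fatty acid branch. Their part in the remaining differences was not tested.

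**Figure D2:**
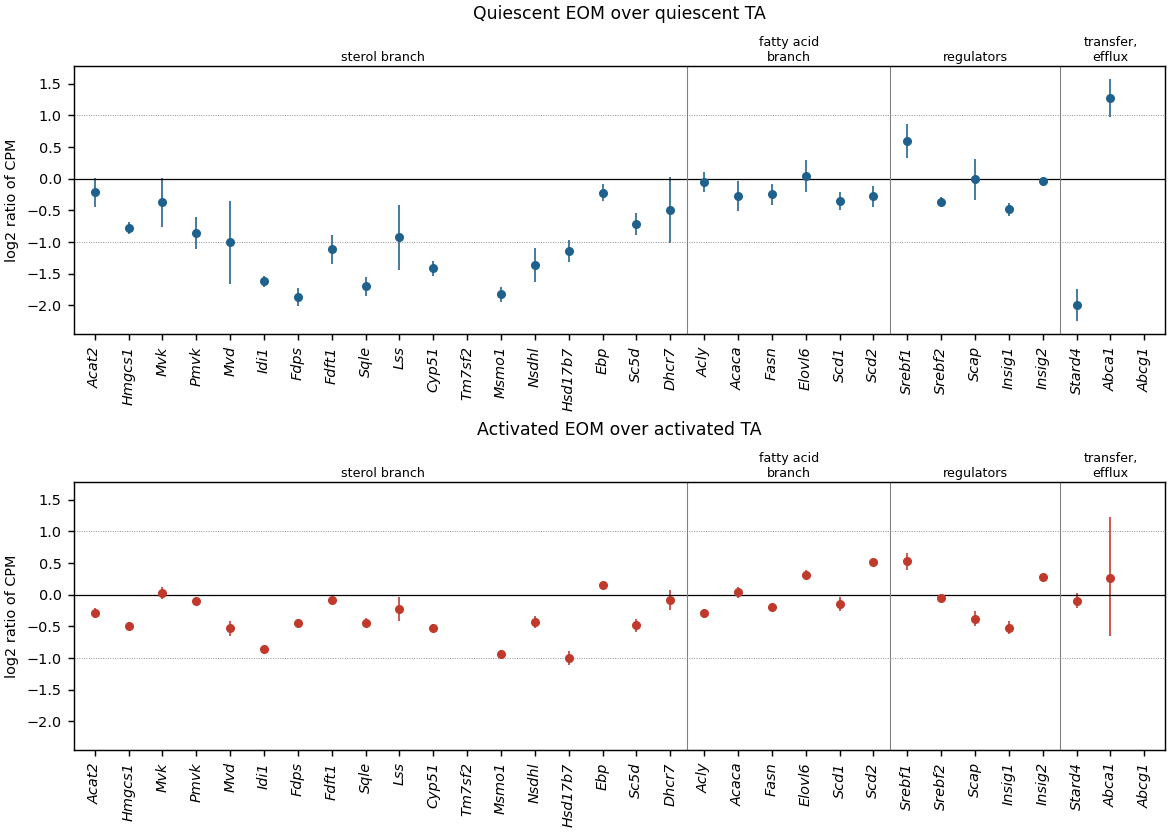
Ratio of CPM, EOM over TA, on the log2 scale for each measured gene, in quiescent cells (upper panel) and activated cells (lower panel), with 95% intervals from counting error as bars and dotted lines at 2-fold. All 17 sterol enzymes lie below 0 in the upper panel and 15 of 17 in the lower one, and Abca1 is the 1 gene above 2-fold in the upper panel.

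After 4 days in culture the sterol branch was again lower in EOM, by a smaller margin. In activated EOM it summed to 448 CPM and in activated TA to 606 CPM, a ratio of 0.739 (0.730 to 0.747), and 15 of 17 enzymes had a log2 ratio below 0. The member at least 2-fold lower was Hsd17b7, at 9.36 CPM in activated EOM and 18.7 CPM in activated TA (0.4996, 0.464 to 0.538), right at the limit. Among all measured genes 1.94% were 2-fold or more lower in activated EOM and 4.55% were higher by that margin, so 1 of 17 is near the background. With other settings the count was between 0 and 2. Whether the ratio differs between states was not tested, as each rests on single libraries.

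The genes leading the activated comparison were among those that led the quiescent one. Msmo1 was at 26.2 CPM in activated EOM and 50.3 CPM in activated TA (0.520, 0.498 to 0.544), and Idi1 at 57.2 CPM in activated EOM and 104 CPM in activated TA (0.550, 0.534 to 0.567). Cyp51, Hmgcs1, Mvd, Fdps, Sqle, Nsdhl and Sc5d had ratios between 0.693 and 0.741. Mvk and Ebp were the enzymes with ratios above 1, at 1.02 (0.954 to 1.08) and 1.11 (1.07 to 1.15). Stard4, far apart in quiescent cells, was at 11.2 CPM in activated EOM and 11.9 CPM in activated TA (0.938, 0.868 to 1.014).

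The fatty acid branch summed to 232 CPM in activated EOM and 201 CPM in activated TA (1.15, 1.13 to 1.17). Scd2, the desaturase with the highest level of this branch in both, was at 120 CPM in activated EOM and 83.7 CPM in activated TA (1.43, 1.39 to 1.47), and Elovl6 was at 25.7 and 20.7 CPM (1.24, 1.18 to 1.31). The other fatty acid members had ratios between 0.814 and 1.03, so the branch split, with 3 members above and 3 below 0 on the log2 scale. Of the regulators, Srebf1 was at 10.1 CPM in activated EOM and 7.02 CPM in activated TA (1.44, 1.31 to 1.58), and Insig1 at 10.6 and 15.2 CPM (0.698, 0.648 to 0.751).

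The fatty acid level differed between cells that had entered differentiation and cells that had not. In activated EOM it was 175 CPM in cells with a UMI of Myog, Mymk or Mymx, genes of terminal differentiation and fusion, and 290 CPM in cells without one. In activated TA it was 187 CPM in cells with one and 227 CPM in cells without. The sterol branch stood the other way, at 456 and 440 CPM in activated EOM and at 633 and 561 CPM in activated TA, in cells with and without these UMIs. Cells with a UMI of the cycling genes Mki67 or Top2a had a fatty acid level of 256 CPM and cells without one 204 CPM in activated EOM, against 210 CPM and 192 CPM in activated TA. In cells without Myog, Mymk or Mymx the sterol median log2 ratio of activated EOM over activated TA was -0.32, against -0.43 in all cells.

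The comparison of activated with quiescent cells asks how leaving quiescence goes along with the pathway. Within the sterol branch Mvk and Mvd, which act on mevalonate and its phosphates, were at least 2-fold higher in activated cells of both muscles, while Sc5d and Hsd17b7, which act on sterols, were at least 2-fold lower in both. Hmgcs1, which acts ahead of Mvk, was at 0.627 (0.590 to 0.665) of the quiescent level in EOM and 0.512 (0.487 to 0.538) in TA. Dhcr7, at the end of the pathway, was at 1.70 (1.30 to 2.26) in EOM and 1.27 (0.993 to 1.64) in TA. Both comparisons are read against a wide background, since 25.5% of measured genes were higher and 25.4% lower by 2-fold or more in activated EOM than in quiescent EOM, and 28.7% higher and 25.5% lower in activated TA than in quiescent TA. In EOM 4 of 17 sterol enzymes were higher and 2 lower by that margin, and in TA 2 were higher and 6 lower. With TMM scaling, which moved the median log2 ratio of all measured genes to 0.43 in EOM and 0.37 in TA, against 0.05 and 0.11 with CPM, 6 were higher and 0 lower in EOM, and 2 higher and 6 lower in TA. The quiescent TA library serves both here and in the comparison of the quiescent muscles, so a level particular to it enters both. Marker sums of other cell types moved with activation too. The 7 fibroblast markers summed to 78.9 CPM in activated EOM and 58.1 CPM in activated TA, against 599.9 CPM in quiescent EOM and 709 CPM in quiescent TA, with 6, 6, 7 and 7 of them detected and Lum at 0 in both activated libraries. Col3a1 was the highest of them in every library, at 67.3, 55.0, 350 and 431 CPM in the same order. The 7 mural markers summed to 2255 CPM in activated EOM and 1488 CPM in activated TA, against 409 CPM in quiescent EOM and 231 CPM in quiescent TA, with all detected except Myh11 in quiescent EOM. Acta2 alone gave 2030 CPM of this sum in activated EOM, 1175 CPM in activated TA and 267 CPM in quiescent EOM. In quiescent TA the highest mural marker was Tagln, at 122 CPM. The part of these marker sums in the results was not tested.

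Mvk was at 17.5 CPM in activated EOM and 6.18 CPM in quiescent EOM (2.82, 2.33 to 3.46), and at 17.2 CPM in activated TA and 8.01 CPM in quiescent TA (2.14, 1.78 to 2.59). Mvd, a later enzyme of the same mevalonate stretch, was at 8.86 CPM in activated EOM against 1.89 CPM in quiescent EOM (4.69, 3.32 to 6.85), and at 12.8 CPM in activated TA against 3.78 CPM in quiescent TA (3.38, 2.60 to 4.48). For both genes the activated levels lay above both quiescent ones, as they did for 5 of the 17 sterol enzymes and for 45.3% of all measured genes. Another 4 of the 17 had both activated levels below both quiescent ones, as had 40.4% of all measured genes. Pmvk, the kinase between them, was 2.31-fold higher (2.02 to 2.66) in activated EOM than in quiescent EOM and 1.37-fold (1.23 to 1.53) in activated TA than in quiescent TA. Fdft1 was 2.53-fold higher (2.23 to 2.89) in EOM and 1.24-fold (1.12 to 1.36) in TA.

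The genes with the highest levels in quiescent TA were lower in activated TA. Idi1 was at 104 CPM in activated TA and 296 CPM in quiescent TA (0.351, 0.339 to 0.363), and Msmo1 at 50.3 CPM in activated TA and 149 CPM in quiescent TA (0.337, 0.321 to 0.354). Sqle, Cyp51, Hsd17b7 and Sc5d had ratios between 0.356 and 0.397. In EOM, where quiescent levels were lower, Idi1, Msmo1, Cyp51 and Sqle had ratios of activated to quiescent cells between 0.594 and 0.859. Hsd17b7 and Sc5d were at least 2-fold lower in both muscles, with ratios of 0.393 (0.351 to 0.441) and 0.467 (0.421 to 0.519) in EOM. The whole branch was at 0.899 (0.878 to 0.919) of the quiescent level in activated EOM and at 0.505 (0.497 to 0.513) in activated TA.

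**Figure D3:**
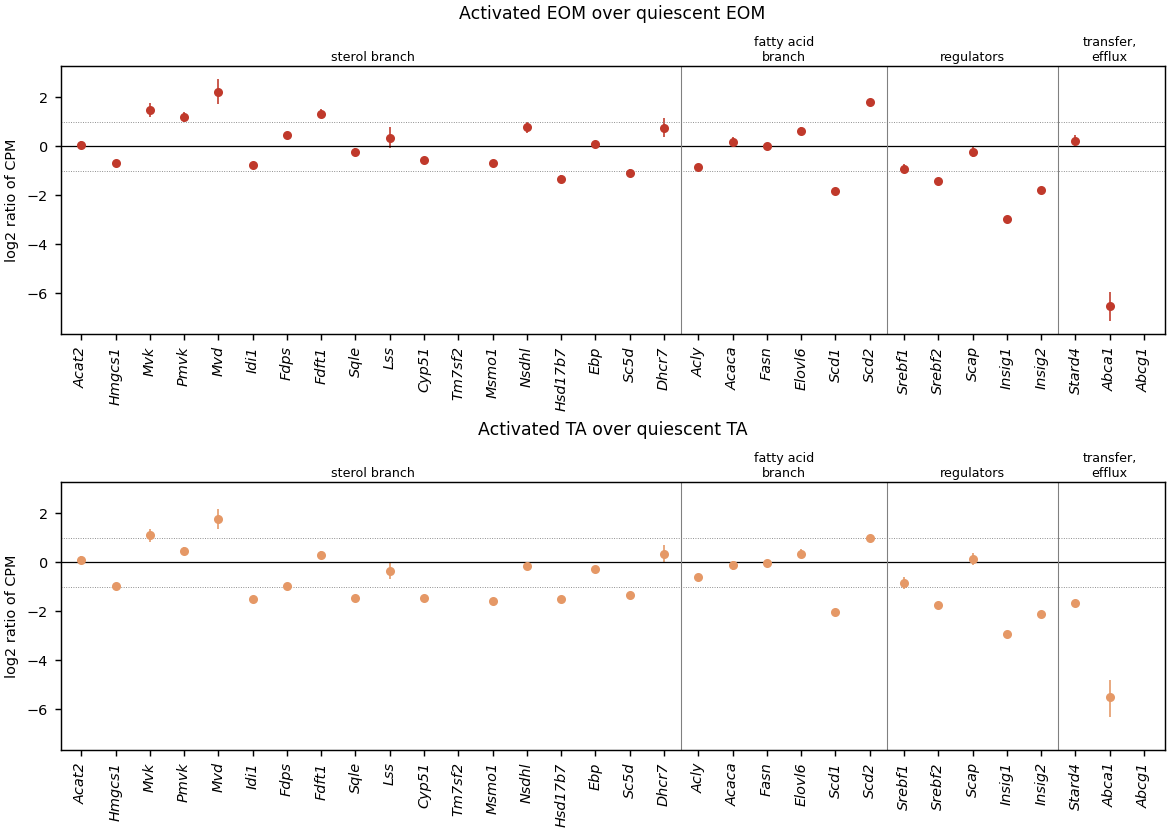
Ratio of CPM, activated over quiescent, on the log2 scale for each measured gene in EOM (upper panel) and TA (lower panel), with 95% intervals from counting error as bars and dotted lines at 2-fold. Mvk, Mvd and Scd2 lie above the upper dotted line in EOM and at or above it in TA, and Insig1, Insig2, Srebf2, Scd1 and Abca1 lie below the lower one in both.

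Of the fatty acid members, the stearoyl-CoA desaturases moved in opposite directions. Scd1 was at 12.2 CPM in activated EOM and 43.2 CPM in quiescent EOM (0.282, 0.258 to 0.308), and at 13.5 CPM in activated TA and 55.1 CPM in quiescent TA (0.245, 0.225 to 0.267). Scd2 was at 120 CPM in activated EOM and 34.1 CPM in quiescent EOM (3.51, 3.24 to 3.82), and at 83.7 CPM in activated TA and 41.4 CPM in quiescent TA (2.02, 1.86 to 2.19). Scd1 therefore gave 9.22% (8.78 to 9.67) of the UMIs of the pair in activated EOM and 13.9% (13.2 to 14.6) in activated TA, while in quiescent EOM the share was 55.9% (53.2 to 58.6) and in quiescent TA 57.1% (54.5 to 59.6). The intervals of the muscles overlapped in quiescent cells and lay apart in activated cells, and a share within a library does not depend on how libraries are scaled. Scd1 and Scd2 are neighbouring paralogues on chromosome 19, so reads that fit both could have been dropped or split. Fasn, Acaca and Elovl6 had ratios of activated to quiescent cells between 0.923 and 1.54, and Acly had 0.564 (0.520 to 0.614) in EOM and 0.666 (0.611 to 0.726) in TA.

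The Insig genes, whose proteins retain the SREBPs, and Srebf2 were far lower in activated cells. Insig1 was at 10.6 CPM in activated EOM and 83.0 CPM in quiescent EOM (0.128, 0.119 to 0.138), and at 15.2 CPM in activated TA and 116 CPM in quiescent TA (0.132, 0.123 to 0.141). Insig2 was at 51.0 CPM in activated EOM and 177 CPM in quiescent EOM (0.288, 0.276 to 0.301), and at 42.1 CPM in activated TA and 182 CPM in quiescent TA (0.231, 0.221 to 0.243). Srebf2 had ratios of 0.370 (0.352 to 0.390) in EOM and 0.297 (0.282 to 0.312) in TA. Srebf1 was at 0.530 and 0.555 of the quiescent level in EOM and TA, and Scap was at 0.859 and 1.11, where both intervals included 1. Thus 3 of the 5 regulators were at least 2-fold lower in both muscles, as was Abca1, at 0.212 CPM in activated EOM against 19.5 CPM in quiescent EOM and at 0.176 CPM in activated TA against 8.08 CPM in quiescent TA. A fall of that size on activation was common, with 25.4% of all measured genes showing it for EOM and 25.5% for TA. The share of all measured genes that showed it for both muscles was not computed, so this count describes the listed genes only. Abca1's ratios were 0.0108 (0.00699 to 0.0162) in EOM and 0.0218 (0.0125 to 0.0359) in TA.

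Stard4 differed in its pattern between the muscles. It was at 11.2 CPM in activated EOM and 9.56 CPM in quiescent EOM (1.17, 0.995 to 1.38), but at 11.9 CPM in activated TA against 38.2 CPM in quiescent TA (0.312, 0.283 to 0.345). Abcg1 was at 0.106 CPM in activated EOM and 1.15 CPM in quiescent EOM. In activated TA it had a single UMI, a level of 0.00978 CPM with an exact 95% interval of 0.000248 to 0.0545, against 1.11 CPM in quiescent TA. Tm7sf2 ranged between 0.912 and 1.89 CPM over the 4 libraries.

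CPM is a share of the transcriptome, and activated cells held more transcripts. They averaged 22062 UMIs a cell in activated EOM against 4859 in quiescent EOM (4.54-fold), and 23894 in activated TA against 5278 in quiescent TA (4.53-fold). In UMIs per cell all 17 measured sterol enzymes and all 6 fatty acid enzymes were higher in activated cells of both muscles. The folds ran from 1.11-fold for Scd1 in TA to 21.3-fold for Mvd in EOM. The median log2 ratio of CPM over all measured genes, activated over quiescent, was 0.05 in EOM and 0.11 in TA. A gene at that median was thus also higher in UMIs per cell, and no share of all measured genes was computed on this scale. Insig1 was lower on this scale as well, at 0.235 UMIs a cell in activated EOM against 0.403 in quiescent EOM, and at 0.364 in activated TA against 0.611 in quiescent TA. Abca1 was likewise lower, at 0.0493 of the quiescent level in EOM and 0.0986 in TA. UMIs per cell also depend on sequencing depth and capture, so neither scale gives molecules per cell.

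The sterol genes were uneven from cell to cell in quiescent muscle stem cells. Each cell was thinned to 2000 UMIs, which left out 31 activated EOM, 47 activated TA, 82 quiescent EOM and 57 quiescent TA cells. Quiescent EOM cells then held 0.972 sterol UMIs on average, with a 90th percentile of 2, a 99th of 7 and a highest value of 24. Quiescent TA cells held 2.32 on average, with percentiles of 6 and 15 and a highest value of 32. The spread was well past that of random counting. Under a Poisson law with the same mean 37.8% of cells in quiescent EOM would hold no sterol UMI, and 48.8% did (25.9% without thinning). In quiescent TA 9.78% of cells would hold none, and 29.4% did (11.1% without thinning). At least 10 sterol UMIs were found in 17 of 3512 quiescent EOM cells (0.484%, exact binomial interval 0.282 to 0.774) and in 106 of 2851 quiescent TA cells (3.72%, 3.05 to 4.48).

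Activated cells were more even, as they were over genes in general, for which values are given below. The mean was 0.863 sterol UMIs in activated EOM and 1.23 in activated TA, with 99th percentiles of 5 and 6, and 1 activated EOM and 7 activated TA cells reached 10. The squared coefficient of variation left after taking off Poisson counting was 0.380 in activated EOM, 0.634 in activated TA, 1.72 in quiescent EOM and 1.41 in quiescent TA. For the fatty acid sum it was 0.462, 0.181, 0.470 and 0.460 in the same order, so the fatty acid branch was less uneven than the sterol branch in both quiescent libraries. No cell of any library had 10 fatty acid UMIs at this depth, and the exact binomial upper bound on that share was at most 0.129%, in quiescent TA.

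**Figure D4:**
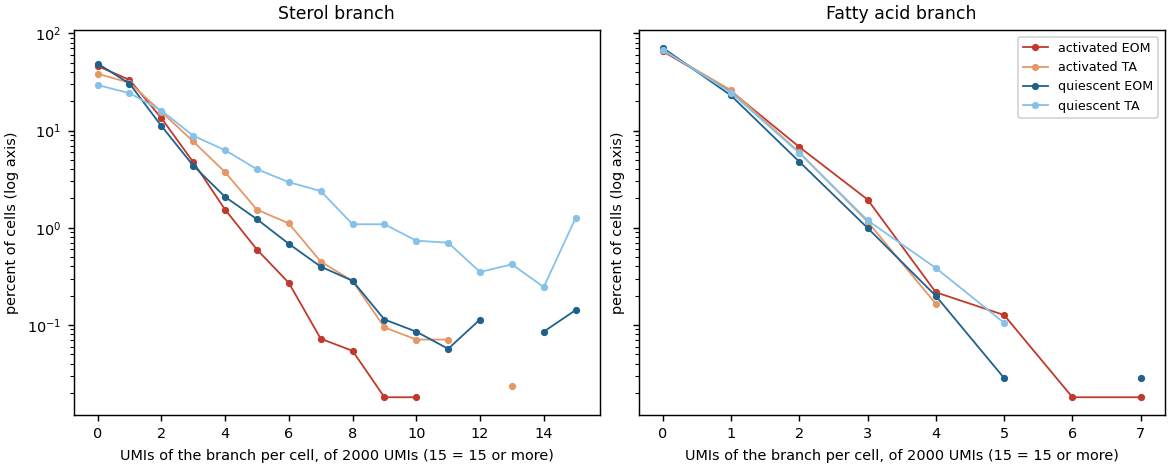
Share of cells, in percent on a log axis, by the number of UMIs of the sterol branch (left) and of the fatty acid branch (right) in cells thinned to 2000 UMIs, for the 4 libraries, with 15 standing for 15 or more. Both quiescent curves reach the last point of the sterol panel, at 1.26% of cells in quiescent TA and 0.142% in quiescent EOM. In quiescent TA 3.72% of cells hold 10 or more sterol UMIs. The 4 curves lie closer together in the fatty acid panel.

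The uneven levels belonged to single enzymes too. Among genes with at least 20 CPM in quiescent EOM the median of this excess spread was 0.495 over 5154 genes and 3.82 over the 9 sterol enzymes, 8 of which lay above that median. In quiescent TA it was 0.510 over 4917 genes and 2.63 over 13 sterol enzymes, all 13 above the median. In activated EOM it was 0.118 over 5087 genes and 0.594 over 9 sterol enzymes, all 9 above the median. In activated TA it was 0.0967 over 5029 genes and 0.707 over 11 sterol enzymes, 9 of them above the median. The lower spread in activated cells was thus shared by genes in general, and the sterol enzymes stood above them in both states. Idi1 had 7.003 in quiescent EOM and 2.63 in quiescent TA, and Msmo1 6.99 and 2.81. Ebp had low values, 0.235 for quiescent EOM against 0.828 for quiescent TA. The 4 fatty acid enzymes at that level had medians of 1.18 in quiescent EOM and 0.939 in quiescent TA, with 3 of 4 above the median of all genes in each. In activated EOM the 4 at that level had a median of 1.26, higher than that of the sterol enzymes, and all 4 lay above the median of all genes. In activated TA the 4 at that level had 0.325, with 3 of 4 above. Excess spread in activated cells was thus not particular to the sterol enzymes. Stard4, not at that level in EOM, had 8.13 for quiescent EOM against 9.65 for quiescent TA.

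The sterol enzymes were high in the same cells. With the enzymes split by alternate places in pathway order, quiescent TA cells with 3 or more UMIs of the odd-placed genes (449 cells) had the even-placed genes at 1482 CPM (1404 to 1564), and cells with 0 (1320 cells) had them at 289 CPM (269 to 310). In quiescent EOM the values were 1120 CPM (984 to 1271) in 108 such cells and 209 CPM (196 to 222) in 2476 cells with 0. Cells with 1 and 2 odd-placed UMIs lay between, at 266 and 535 CPM in quiescent EOM and at 449 and 607 CPM in quiescent TA. The fatty acid genes followed with a shallower slope, at 332 CPM in cells with 3 or more and 162 CPM in cells with 0 in quiescent TA, and at 319 and 177 CPM in quiescent EOM.

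Across cells, the counts of the odd-placed and even-placed sterol genes had a Pearson r of 0.150 in activated EOM, 0.251 in activated TA, 0.359 in quiescent EOM and 0.527 in quiescent TA. For the sterol and fatty acid sums r was 0.0576, 0.170, 0.101 and 0.203 in the same order. These describe cells that share a library and a depth of 2000 UMIs (5532, 4234, 3512 and 2851 cells). Counting noise lowers r more where counts are lower. The odd-placed genes averaged 0.383, 0.576, 0.438 and 1.21 UMIs a cell in the same order. The order of these r, between libraries or between branches, is therefore not an order of how closely the genes vary together.

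Each gene was then set against the sum of the other sterol enzymes. Cells at or above the 90th percentile of that sum were compared with cells at or below its median. The upper limits were whole UMIs, at least 2 in quiescent EOM and at least 4 to 6 in quiescent TA, and the lower ones at most 0 or 1 in quiescent EOM, depending on the gene, and at most 1 in quiescent TA. Folds are therefore not comparable between the libraries, and within a library they were recomputed with limits of 2 and 0 UMIs for every gene in quiescent EOM and 6 and 1 in quiescent TA. These folds were computed for the members only, so no share of all measured genes stands beside the counts that follow. How far these cells differ in genes generally is therefore not known. In quiescent TA the sterol enzymes had a median fold of 4.47, and 15 of 17 were at least 2-fold higher in the sterol-high cells. Fdft1 was at 117 CPM in sterol-high and 11.3 CPM in sterol-low cells (10.4-fold, 6.86 to 16.04), Msmo1 at 484 and 51.6 CPM (9.38-fold, 7.77 to 11.4) and Fdps at 369 and 42.7 CPM (8.65-fold, 7.03 to 10.7). With the same limits for every gene Msmo1 was at 10.7-fold, Fdft1 at 10.4-fold and Fdps at 10.2-fold. Acat2 and Ebp had folds of 1.34 (0.721 to 2.36) and 1.24 (0.861 to 1.75). These are also the enzymes whose levels were nearly equal between the 4 libraries, at 19.0 to 23.8 CPM for Acat2 and 47.4 to 57.3 CPM for Ebp.

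In quiescent EOM the median fold over the sterol enzymes was 2.91, with 11 of 17 at least 2-fold higher in sterol-high cells. Idi1 had the highest fold there, also with the same limits for every gene, at 269 CPM in sterol-high and 45.8 CPM in sterol-low cells (5.86-fold, 4.86 to 7.10). Msmo1 was 4.45-fold higher (3.36 to 5.91) and Fdps 4.19-fold (3.05 to 5.78). Ebp, at 1.22-fold (0.923 to 1.60), and Acat2, at 1.25-fold (0.795 to 1.94), were again near 1, as was Sc5d at 1.24-fold (0.834 to 1.82). Pmvk had the lowest fold in quiescent EOM, at 1.09 (0.622 to 1.86). In quiescent TA its fold was 2.99 (1.74 to 5.04). The intervals of Mvk and Mvd in quiescent EOM also included 1.

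**Figure D5:**
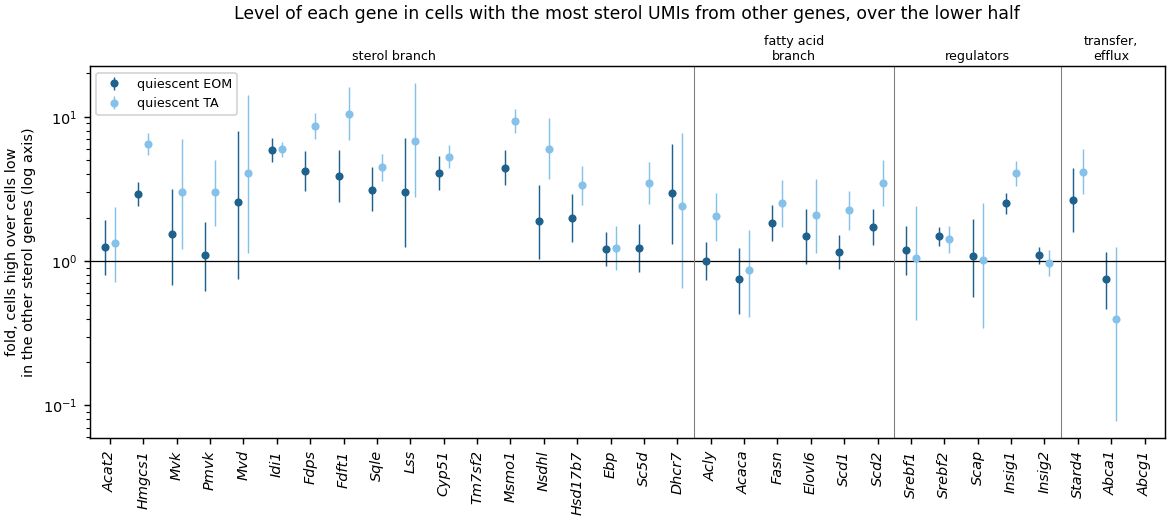
Fold of each gene on a log axis between cells high and cells low in the other sterol enzymes, in quiescent EOM and quiescent TA, with 95% intervals from counting error as bars. Fdft1, Msmo1 and Fdps reach 8.65-fold to 10.4-fold in quiescent TA, Insig1 and Stard4 lie with the enzymes, and Insig2, Scap and Srebf1 lie near 1.

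Outside the sterol enzymes, Insig1 and Stard4 were high in the same cells. Insig1 was at 298 CPM in sterol-high and 73.6 CPM in sterol-low cells of quiescent TA (4.05-fold, 3.32 to 4.94), and at 151 and 60.0 CPM in quiescent EOM (2.51-fold, 2.11 to 2.98). Stard4 had folds of 4.16 (2.90 to 5.95) in quiescent TA and 2.67 (1.58 to 4.43) in quiescent EOM. Srebf2 was modestly higher, at 1.42-fold (1.15 to 1.75) in quiescent TA and 1.49-fold (1.27 to 1.73) in quiescent EOM. Insig2 had 0.970 (0.786 to 1.19) and 1.10 (0.955 to 1.26), and the intervals of Srebf1, Scap and Abca1 included 1 in both libraries. Insig1 and Insig2, which encode related retention proteins, thus differed: Insig1 varied with the enzymes across cells and Insig2 did not beyond counting error.

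Fatty acid enzymes were higher in the sterol-high cells of quiescent TA, with a median fold of 2.17 and intervals above 1 for 5 of 6. Scd2 was at 84.4 CPM in sterol-high and 24.2 CPM in sterol-low cells (3.48-fold, 2.41 to 5.02) and Fasn at 70.3 and 27.8 CPM (2.53-fold, 1.72 to 3.67). Acaca was the exception at 0.861-fold (0.409 to 1.65). In quiescent EOM the median was 1.33, and Fasn at 1.84-fold (1.38 to 2.44) and Scd2 at 1.72-fold (1.28 to 2.28) had intervals above 1. With the same limits for every gene the medians were 2.91 for the sterol branch and 1.26 for the fatty acid branch in quiescent EOM, and 5.01 and 2.17 in quiescent TA.

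The lower sterol level of quiescent EOM was present in the bulk of cells as well as in the highest ones. The ratio of quiescent EOM to quiescent TA was 0.418 for the mean per cell, 0.466 for the mean of the 10% of cells with the most sterol UMIs, and 0.384 for the mean of the other cells. The top 10% of cells held 46.6% of the sterol UMIs in quiescent EOM and 41.8% in quiescent TA. Cells in the upper 50% by UMI count had 528 CPM of sterol transcripts and those in the lower 50% had 451 CPM in quiescent EOM, against 1294 CPM and 1044 CPM in quiescent TA, so the muscles were apart in both ranges of depth. Free RNA in the droplets was not measured for these genes, as no cell type that lacks them was present.

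Other lipid genes outside the 32 were counted by the same margin in 3 lists. Of 13 measured SREBP-linked and fatty acid genes, 3 were at least 2-fold lower and 0 higher in quiescent EOM than in quiescent TA, beside 3.52% and 5.73% of all measured genes. Pcyt2, an enzyme of phosphatidylethanolamine synthesis, was at 10.9 CPM in quiescent EOM and 24.8 CPM in quiescent TA (0.442, 0.369 to 0.527), and Acsl4, which activates polyunsaturated fatty acids, at 14.3 and 31.1 CPM (0.459, 0.392 to 0.536). On activation 2 of the 13 were higher in each muscle, a smaller share than the 25.5% of all measured genes in EOM and 28.7% in TA, namely the malic enzyme gene Me1, at 46.0 CPM in activated EOM and 3.21 CPM in quiescent EOM (14.3-fold, 11.0 to 19.0), and Tmem97, which binds sterol transport proteins, at 110 and 13.0 CPM (8.47-fold, 7.43 to 9.70). In TA their folds were 12.7 (9.57 to 17.2) and 5.65 (5.02 to 6.38). Another 3 genes of this list were lower in activated EOM and 4 in activated TA, beside 25.4% and 25.5% of all measured genes. Acsl1, a long-chain acyl-CoA synthetase, was among the TA ones at 8.49 CPM in activated TA and 28.3 CPM in quiescent TA (0.300, 0.267 to 0.338).

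Of 17 sterol sensing, transport and isoprenoid genes, 2 were higher and 1 lower in quiescent EOM than in quiescent TA, beside 5.73% and 3.52% of all measured genes. Mylip, an LXR-induced ubiquitin ligase that degrades lipoprotein receptors, was at 53.4 CPM in quiescent EOM and 21.2 CPM in quiescent TA (2.52, 2.22 to 2.87), the same direction as Abca1. The lipoprotein receptor gene Vldlr was at 14.3 CPM in quiescent EOM and 40.7 CPM in quiescent TA (0.352, 0.303 to 0.408). On activation 2 were higher and 4 lower in EOM, and 2 were higher and 5 lower in TA. The shares of higher genes were below the 25.5% and 28.7% of all measured genes, and those of lower genes near the 25.4% and 25.5%. Mylip was at 4.16 CPM in activated EOM against 53.4 CPM in quiescent EOM (0.0778, 0.0697 to 0.0867) and at 2.64 CPM in activated TA against 21.2 CPM in quiescent TA (0.125, 0.106 to 0.147), again alongside Abca1. Nr1h2, the widely expressed LXR gene, was at 0.383 (0.350 to 0.419) of the quiescent level in activated EOM and 0.430 (0.390 to 0.475) in activated TA. Pdss1, of coenzyme Q synthesis, was 2.94-fold higher (2.51 to 3.48) in activated EOM and 2.49-fold (2.14 to 2.92) in activated TA, while Ggps1, which makes geranylgeranyl diphosphate, was at 0.408 (0.380 to 0.438) and 0.384 (0.357 to 0.414).

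The fatty acid oxidation genes, listed as a contrast to synthesis, had 0 of 10 measured members 2-fold apart in either direction between quiescent EOM and quiescent TA or between activated EOM and activated TA. On activation 2 were higher and 2 lower in each muscle, no more than the share of all measured genes. Acadl, the long-chain acyl-CoA dehydrogenase, was 2.70-fold higher (2.56 to 2.85) in EOM and 2.61-fold (2.46 to 2.78) in TA. Acadvl, its very-long-chain counterpart, was at 0.443 (0.414 to 0.473) and 0.427 (0.398 to 0.460), and the lipid-sensing receptor gene Ppard at 0.176 (0.155 to 0.199) and 0.159 (0.137 to 0.185), of the quiescent level in activated EOM and activated TA.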

How the data were processed

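The deposited matrices give UMI counts of each gene in each barcode, not normalized, and per the submitters' processing notes the authors ran Cell Ranger 3.0.2 with the mm10 build. The annotation release and the use of strand in counting were not given in the sources used here. Barcodes with at least 500 genes and at most 10% mitochondrial UMIs were kept. Scrublet (scanpy 1.11.5) called 0, 1, 2 and 0 doublets in activated EOM, activated TA, quiescent EOM and quiescent TA and so did not work, and 436, 277, 141 and 155 barcodes were removed by score rank at 0.8% per 1000 barcodes. Leiden clusters (igraph 0.11.9) were named by markers of other cell types, and 16 endothelial-like cells of quiescent TA were removed. A cluster of 557 quiescent EOM cells with 3 fibroblast markers and one of 249 quiescent TA cells with 3 tenocyte markers were kept because none of their muscle markers was lost, a condition set after the data had been seen.

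UMIs were summed over kept cells and scaled to CPM. Ratios carry exact 95% intervals for Poisson rates, and log2 ratios a pseudocount of 1 CPM. Intervals were tested on simulated data. Groups are single libraries, so genes were counted by size (2-fold, at 5 CPM in any library) and no p-value was computed. Branch levels by Myod1, Myog, Mymk, Mymx, Mki67 or Top2a sort cells by UMIs after thinning to 2000 UMIs and sum all their UMIs. Scaling with edgeR 4.0.16 TMM factors and DESeq2 1.42.0 median-of-ratios factors was among the alternatives. Positions of overlapping genes are from GENCODE vM21, which held all 32 genes. All 32 genes are named, and outside them, per list, comparison and direction, up to 3 genes with the largest fold among those at 20 CPM or more. The 32 genes, the other lists and the tests were chosen with earlier results of these data known.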

Additional observations from a re-analysis of the deposited data

How the results depend on the processing

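The medians, counts and single-gene ratios of the 4 comparisons were recomputed with TMM and median-of-ratios scaling, a pseudocount of 0.1 CPM, a minimum of 20 CPM or none, mitochondrial limits of 20% and 7%, no doublet or cluster removal, cells thinned to equal depth, activated cells without Myog, Mymk or Mymx, and quiescent cells without Myod1. Removing every cluster with 3 markers of another cell type and using the same limits for every gene in the folds between sterol-high and sterol-low cells were added after seeing the data. The excess spread in quiescent cells was recomputed at 1000 UMIs and with the 7% limit, and the correlations, the split of sterol genes and the shares within gene pairs under no alternative. The sterol branch stayed lower in EOM in quiescent cells under each alternative run for that comparison, with 6 to 10 enzymes at least 2-fold lower. The main setting counts among 17 measured enzymes, a minimum of 20 CPM among fewer and no minimum among more. No called member changed sign among 109 recomputed values for quiescent EOM over quiescent TA, 11 for activated EOM over activated TA, 141 for activated EOM over quiescent EOM and 177 for activated TA over quiescent TA. Of the branch results, 158 values kept their direction and stayed within the median counting interval (medians), 1.5 times (counts and folds) or 10% (spread), while 31 moved past that and 7 reversed.

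For quiescent EOM over quiescent TA, the 7% mitochondrial limit gave medians (log2) of -0.61 for the sterol branch and 0.023 for the fatty acid branch, a reversal with 735 quiescent TA cells left, and with no minimum level 1 sterol enzyme was higher, Tm7sf2. For activated EOM over activated TA, the count of sterol enzymes at least 2-fold lower, 1 as reported, was 2 with median-of-ratios scaling and with thinned cells, and 0 with the 20% limit, the 7% limit, no doublet or cluster removal, and cells without Myog, Mymk or Mymx. In cells without Myog, Mymk or Mymx the sterol median was -0.32 and the fatty acid median 0.084, against -0.05 in all cells, a reversal.

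For activated EOM over quiescent EOM, the sterol median of 0.10 was 0.49 after TMM scaling, 0.33 after median-of-ratios scaling, 0.28 without Myog, Mymk or Mymx and -0.21, reversed, at 20 CPM, where fewer genes were left. The fatty acid median of 0.10 was 0.48, 0.32 and 0.36 with the first 3 of these. The count of lower sterol enzymes, 2 as reported, was 0 after TMM scaling and 1 after median-of-ratios scaling, thinned cells, or cells without Myog, Mymk or Mymx, and the count of higher ones, 4 as reported, was 2 at 20 CPM. For activated TA over quiescent TA, the sterol median of -0.29 was -0.059 with TMM, -0.16 with median-of-ratios scaling and -0.96 at 20 CPM, and inside its wide interval it was -0.52 without Myod1 and -0.49 with the 7% limit. The count of lower enzymes, 6 as reported, was 8 without Myod1 and 6 to 8 under the other alternatives. The fatty acid median of -0.08 turned to 0.19, 0.085, 0.14 and 0.14 with TMM, median-of-ratios scaling, the 7% limit and cells without Myog, Mymk or Mymx. Higher sterol enzymes, 2 as reported, numbered 0 at 20 CPM and 1 without Myod1.

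The excess spread per cell with the 7% limit was 2.02 for sterol genes and 0.415 for fatty acid genes in quiescent EOM. In quiescent TA these were 1.57 and 0.296. At 1000 UMIs the fatty acid value was 0.615 for quiescent EOM against 0.387 for quiescent TA. The cause of these shifts was not tested, except where fewer genes or cells were left by construction. No paired analysis was possible because each group has 1 library. With 3 UMIs worth up to 0.195 CPM, levels near 1 CPM rest on few counts, and a spread between animals, sorts or cultures cannot be told apart from a difference between the groups.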
